A study of Mus musculus with 48 samples.

Results

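The genes described here encode the carriers that move bile salts, organic anions, phospholipid and sterols into and out of hepatocytes. Of 9 listed transporter genes, 8 (Abcb11, Abcb4, Abcc2, Abcg5, Abcg8, Slc10a1, Slco1a4 and Slco1b2) were found by their symbol in the liver signal table, each with a single probe set, out of 21182 genes with a probe set of 1 symbol. The symbol of the ninth, Slco1a1, was not found in that column. The probe set that the gene list of the study names Slco1a1 carries no symbol in the table, so its values are given beside the others and are not counted with the 8. Signals are hybridization intensities from gene expression arrays on a linear scale, and differences and tests are on their log2 scale.

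Male Bl6J mice of 10 to 12 weeks, with chow and water always available in a light-dark cycle, were either left undisturbed (control) or subjected to timed sleep restriction (TSR, labelled SR). In TSR, gentle handling prevented sleep between ZT0, the onset of light, and ZT6 for 5 days in a row, and again for 5 days after a pause of 2 days with free sleep. Liver RNA was taken at ZT1, ZT7, ZT13 and ZT19, with 3 arrays in each of the 8 groups and 24 in all. Collection began in the evening before the last day of restriction, so ZT1 lies within the hours of enforced wakefulness and ZT7 follows them. The sources do not state that every array held a different mouse, and p-values then measure only the spread between these arrays. Control arrays carry the numbers 37 to 48 and TSR arrays 1 to 12, so treatment and array order cannot be told apart. Control numbers also rise with the hour, from ZT1 to ZT19, while TSR numbers are mixed over the hours. In control liver, time of day and array order therefore cannot be told apart either, and comparisons of curves between treatments share this limit.

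Bile acids circulate between liver and gut. On the blood side of the hepatocyte, Slc10a1 (NTCP) takes up conjugated bile salts with sodium, while the organic anion transporters Slco1b2, Slco1a4 and Slco1a1 take up bile salts, bilirubin, hormones and drugs without it. On the canalicular side, Abcb11 (BSEP) pumps bile salts into bile, Abcc2 (MRP2) exports glucuronide and glutathione conjugates, Abcb4 (MDR2 in mice) moves phosphatidylcholine to the outer leaflet, and the obligate heterodimer of Abcg5 and Abcg8 exports cholesterol and plant sterols. Bile acid synthesis and several of these carriers are known to follow feeding and the clock.

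In RefSeq (GRCm38.p6), Slco1b2 (chr6:141629452-141686646), Slco1a4 (chr6:141805438-141856284) and Slco1a1 (chr6:141907281-141946962) are neighbours on chromosome 6, and Abcg8 (chr17:84676302-84700333) overlaps Abcg5 (chr17:84658174-84683011) on chromosome 17. Abcb11 lies at chr2:69238282-69342616, Abcb4 at chr5:8893614-8959226, Slc10a1 at chr12:80953185-80968705 and Abcc2 at chr19:43782308-43838332. The members stood between the 88.1 percentile (Abcg5) and the 99.3 percentile (Slc10a1) of mean liver signal, with means of 726 to 5223 intensity units. All 8 passed the filter on low signals, which left 12551 probe sets to test. 12 hepatocyte markers summed to between 90657 and 98631 in control arrays and between 91173 and 110058 in TSR arrays, and the defining cholangiocyte markers Krt19, Krt7 and Cftr had median signals of 89.7, 84.8 and 26.8. 12 pancreatic acinar markers summed to 9525 in TSR ZT19 replicate 3 and to between 604 and 1183 in the other 23 arrays. Earlier results of these data set 5 arrays apart by a shared pattern (control ZT7 replicate 3, all 3 control arrays of ZT19 and TSR ZT1 replicate 3), and values without them are given where calls depend on them. In whole liver, a lower share of hepatocytes and less RNA per hepatocyte cannot be told apart.

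The sequences around some of the start sites were read from RefSeq promoter windows (build GRCm38.p6, 250 bases before to 50 after a start site), in which all 9 genes matched. They are shown to place the members that share regulatory sequence or had opposite daily profiles. Abcg5 and Abcg8 lie head to head on chromosome 17. Of 2 annotated Abcg8 start sites, 1 lies inside the Abcg5 locus, and its window (chr17:84676052-84676351) held none of the motifs searched. The other lies 110 bases from the Abcg5 start site, so these windows overlap over 209 bases (chr17:84682962-84683170, written in the direction of Abcg8). Capitals mark the GATA-type motif AGATAA on either strand, which occurred 3 times. At least 3 copies stood in 0.107% of 32851 windows, and at least 1 copy in 11.2%.
Abcg5-Abcg8: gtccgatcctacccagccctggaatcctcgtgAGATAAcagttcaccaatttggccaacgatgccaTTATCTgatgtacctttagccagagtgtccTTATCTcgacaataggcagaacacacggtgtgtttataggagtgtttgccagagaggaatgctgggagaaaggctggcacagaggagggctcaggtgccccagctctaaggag

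The other windows are shown because Abcb11 peaked apart from the others in control liver, while Slc10a1 and Slco1b2 had the highest r of the uptake genes within each treatment. In Abcb11 (chr2:69342567-69342866, minus strand), capitals mark TAGGTCA, a core bound by ROR and REV-ERB receptors, on the opposite strand 56 bases before the start site. In Slc10a1 (chr12:80968030-80968329, minus strand, 1 of 2 annotated start sites), they mark the nuclear receptor core AGGTCA 87 bases before the start site and the D-box TTATGCAA, the letters of the PAR bZIP family (DBP, TEF, HLF), across the start site on the opposite strand. In Slco1b2 (chr6:141629268-141629567, plus strand), they mark AGGTCA on the opposite strand 81 bases before the start site and the letters GTTAAT 66 bases before it.
Abcb11: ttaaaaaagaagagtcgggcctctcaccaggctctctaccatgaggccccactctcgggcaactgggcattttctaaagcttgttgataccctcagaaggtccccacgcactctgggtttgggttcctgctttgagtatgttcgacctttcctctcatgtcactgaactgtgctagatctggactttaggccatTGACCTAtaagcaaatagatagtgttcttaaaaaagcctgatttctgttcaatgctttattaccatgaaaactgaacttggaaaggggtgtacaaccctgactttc
Slc10a1: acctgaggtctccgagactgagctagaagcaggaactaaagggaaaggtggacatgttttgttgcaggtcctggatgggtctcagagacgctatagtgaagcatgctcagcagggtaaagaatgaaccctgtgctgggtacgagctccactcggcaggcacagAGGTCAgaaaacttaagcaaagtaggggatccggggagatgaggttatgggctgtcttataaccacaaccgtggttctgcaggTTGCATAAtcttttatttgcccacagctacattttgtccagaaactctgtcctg
Slco1b2: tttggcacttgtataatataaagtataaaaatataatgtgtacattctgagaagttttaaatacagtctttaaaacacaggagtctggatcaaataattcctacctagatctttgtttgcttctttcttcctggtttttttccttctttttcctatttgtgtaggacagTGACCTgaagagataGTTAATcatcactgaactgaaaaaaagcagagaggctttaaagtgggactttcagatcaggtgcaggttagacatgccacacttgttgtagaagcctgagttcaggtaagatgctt
Over all windows, on either strand, AGGTCA occurred in 16.3%, TAGGTCA (which contains it) in 2.61%, TTATGCAA in 0.743% and GTTAAT in 7.10%. Among the 9 genes, TAGGTCA also occurred in Slco1a1 (134 bases before its start site), and AGGTCA also in Abcc2 (49 bases before) and once more in Slco1a1 (24 bases before). The window of the other Slc10a1 start site (chr12:80968656-80968955) held none of the motifs searched. TTATGTAA (0.938%) and the E-box CACGTG (7.15%) had no match in the windows of the 9 genes. Pairs of AGGTCA as an inverted repeat 1 base apart, or a direct repeat 1 or 4 bases apart, had no match there either, and each occurred in at most 0.0396% of windows.

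The first comparison asked how the transporters ran over the day in control liver. In control liver 6 of the 8 had their highest mean log2 signal at ZT7, in the middle of the light phase, and 5 of the 8 had their lowest at ZT1, while over all tested probe sets 19.8% were highest at ZT7 and 21.4% lowest at ZT1. A curve of 24 h passed the test in 5 of the 8 (Abcb11, Abcc2, Abcg5, Abcg8 and Slco1b2), against 12.9% of all tested probe sets. Abcg8 had the widest fitted curve, with an amplitude of 0.55 on the log2 scale, a peak at ZT8.42 and an adjusted p of 0.000174. Its mean fell from 1881 ± 42.6 at ZT7 to 921 ± 71.0 at ZT19 (SD, n = 3), a 2.04-fold range in which no neighbouring time points overlapped. Abcg5, its partner, had an amplitude of 0.53 and a peak at ZT10.5 (adjusted p = 0.0166).

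Abcb11 ran opposite to most of the others in control liver. Its curve peaked at ZT1.05 with an amplitude of 0.32 (adjusted p = 0.0137), and its control arrays read 3401, 3588 and 3485 at ZT1 and 2203, 2256 and 2223 at ZT13, 1.57-fold apart. Slco1b2 had an amplitude of 0.18 and a peak at ZT9.17 (adjusted p = 0.0226), and Abcc2 an amplitude of 0.19 and a peak at ZT10.6 (adjusted p = 0.0488). The curves of Slco1a4 (amplitude 0.30, peak ZT11.6, adjusted p = 0.0640), Slc10a1 (0.12, ZT10.5, 0.114), Abcb4 (0.11, ZT6.78, 0.413) and Slco1a1 (0.07, adjusted p = 0.794) did not pass. The median amplitude of the 8 was 0.24, beside 0.13 over all tested probe sets. Without the 5 arrays set apart, which include every control array of ZT19, the Abcg5 curve had an adjusted p of 0.0629 and that of Slco1a4 one of 0.0380. A curve through the remaining time points passes through each of their means, so it tests only whether these means differ. The calls of Slco1b2 and Abcc2 were also lost when single arrays were left out, the former by 3 of 24 arrays and the latter by 10.

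**Figure D1:**
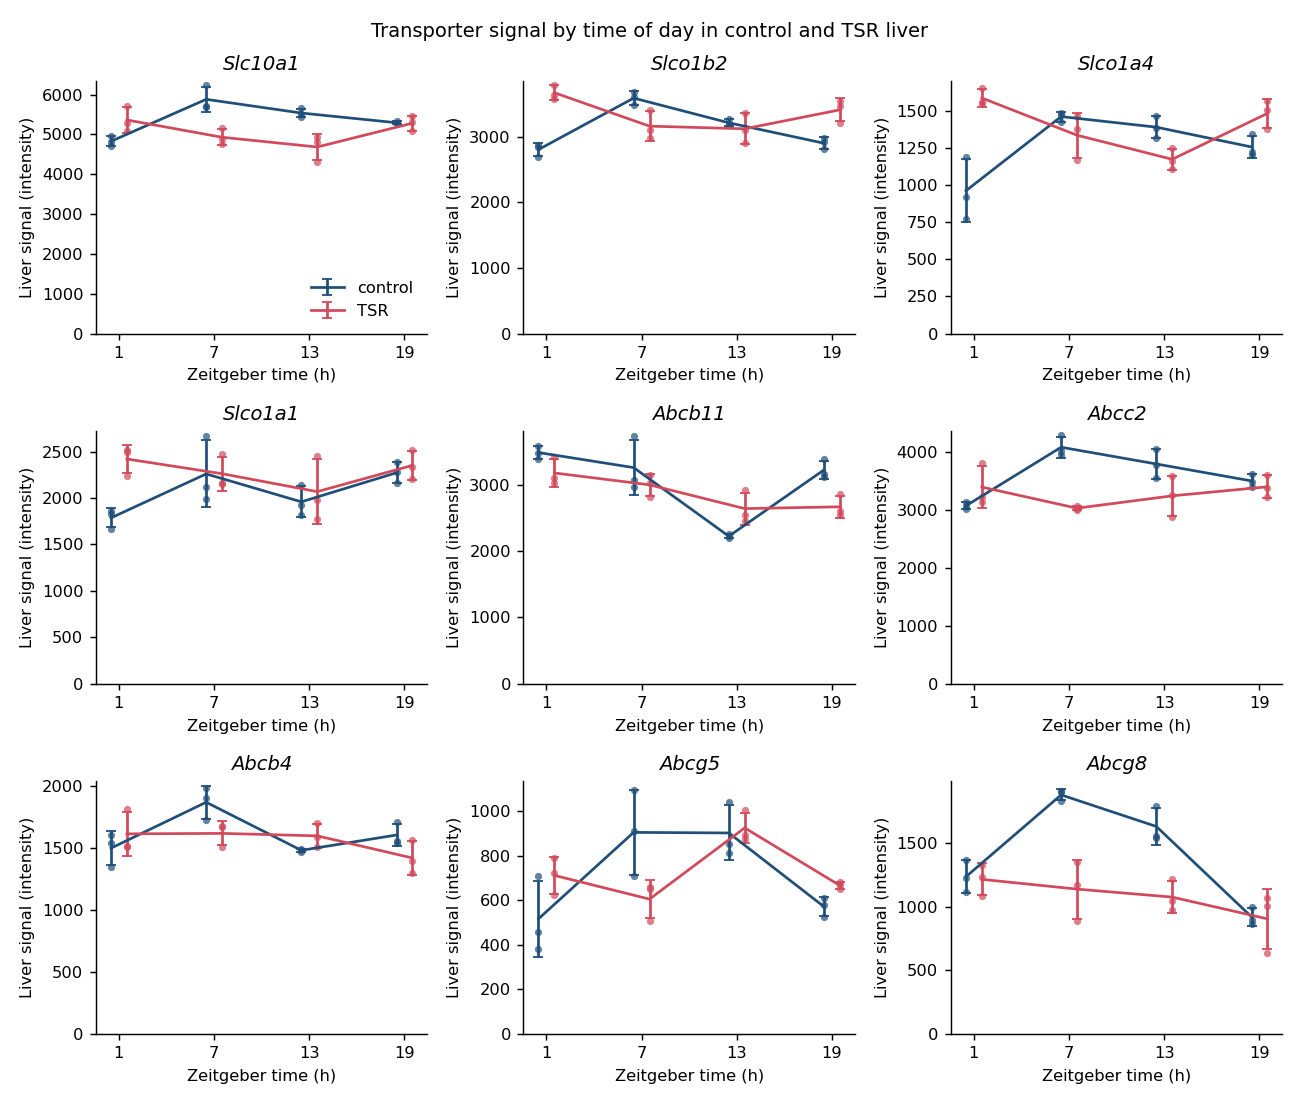
Liver signal (intensity, linear axis from 0) of the 9 transporters at ZT1, ZT7, ZT13 and ZT19, with a point for each array and lines through group means with SD bars (n = 3), control in blue and TSR in red, offset sideways. Abcg8 in control liver rises to 1881 at ZT7 while TSR stays between 905 and 1216, and Slco1b2 and Slco1a4 have their lowest control mean but their highest TSR mean at ZT1.

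In TSR liver none of the 8 passed the rhythm test (limma, adjusted p from 0.0717 for Slco1a4 to 0.558 for Abcc2, with 2 of the 8 at an unadjusted p under 0.05), where 2.69% of all tested probe sets did. The median amplitude of the 8 was 0.14, the same as over all tested probe sets. Abcg8 had a fitted amplitude of 0.20 and Abcg5 of 0.21. Highest group means stood at ZT1 in 5 of the 8, where 26.6% of all tested probe sets had theirs. A missing call in 1 group is not a difference, so the curves were compared directly: Slco1a4 (adjusted p = 0.0342) and Slco1b2 (adjusted p = 0.0377) differed between TSR and control, 2 of the 8 beside 0.367% of all tested probe sets. The fitted peak of Slco1a4 lay at ZT11.6 in control and ZT23.7 in TSR liver, and that of Slco1b2 at ZT9.17 and ZT23.3. Neither Slco1a4 curve passed the rhythm test, nor did the TSR curve of Slco1b2 (adjusted p = 0.258). The test shows that the curves differed, and these peak times are not established. In both genes the lowest control mean and the highest TSR mean stood at ZT1. Fitted peaks of Slc10a1 (ZT10.5 in control, ZT23.2 in TSR) lay 11.3 h apart, with an adjusted p of 0.0936 for the difference. Without TSR ZT19 replicate 3 that adjusted p was 0.0462. The calls of Slco1a4 and Slco1b2 sat near the threshold. That of Slco1a4 was lost without any 1 of 12 arrays and that of Slco1b2 without any 1 of 17. Without the 5 arrays set apart the adjusted p was 0.0328 for Slco1a4 and 0.0879 for Slco1b2. Control liver then has no ZT19 array, so its curve passes through the remaining means and its daily shape is not tested.

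**Figure D2:**
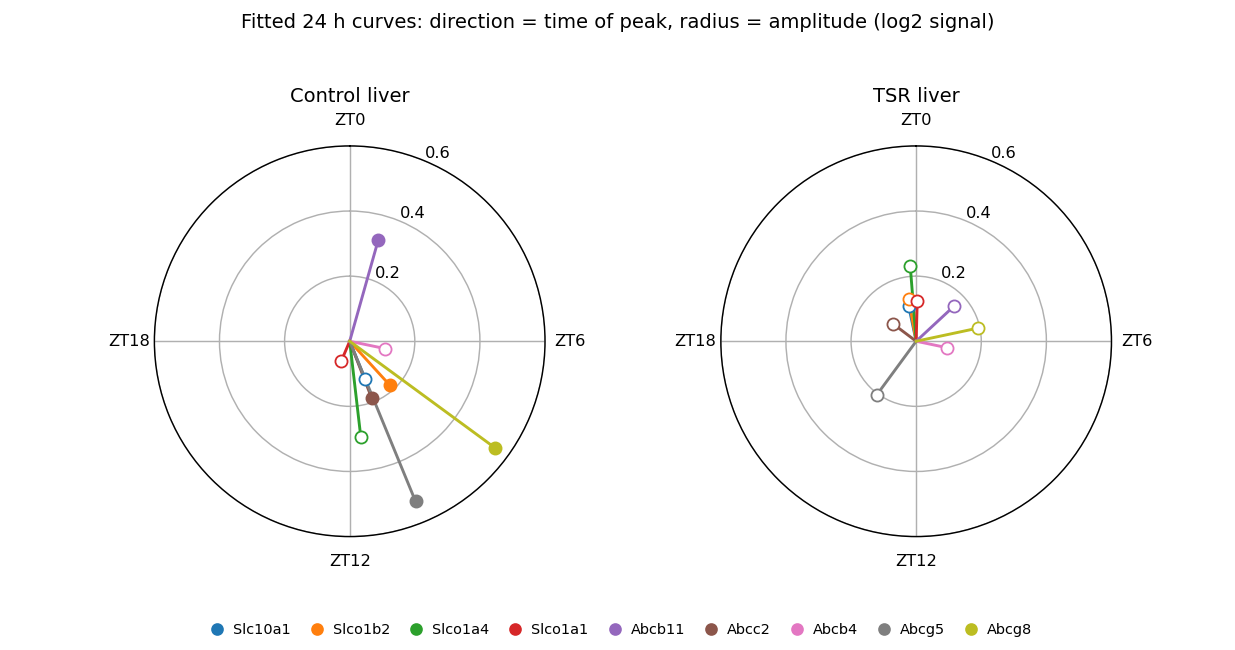
Fitted curves of 24 h as clocks for control liver (left) and TSR liver (right), where the direction of each line is the time of the fitted peak (ZT), its length is the amplitude on the log2 scale, and filled points passed the test at an adjusted p under 0.05. In control liver most transporters point to between ZT6 and ZT12 and Abcb11 to ZT1.05, while in TSR liver the uptake genes Slc10a1, Slco1b2, Slco1a4 and Slco1a1 point to about ZT0 and no point is filled.

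The effect of TSR depended on the time of day in 7 of the 8, all but Abcb4, when the 4 differences between TSR and control were compared without a curve. Over all tested probe sets this test called 20.1%. Slco1a4 had the smallest adjusted p (0.00493), followed by Slco1b2 (0.00734), Abcc2 (0.0195), Slc10a1 (0.0201), Abcg5 (0.0302), Abcb11 (0.0327) and Abcg8 (0.0482), while Abcb4 had 0.107 and Slco1a1 0.141. Without the 5 arrays set apart, which removes the ZT19 comparison, 1 of the 8 (Slco1a4, adjusted p = 0.0359) still passed. In that setting 93 of all 12551 tested probe sets passed, beside 2527 with all arrays. Without control ZT1 replicate 2, 4 of the 8 and 1173 of all tested probe sets passed. The call of Abcg8 was lost without any 1 of 20 arrays, that of Abcb11 without any 1 of 8 and that of Abcg5 without any 1 of 4.

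Among the uptake carriers, the changes with the smallest adjusted p were higher levels at ZT1 in TSR liver. At ZT1 the control arrays of Slco1a4 read 1192, 921 and 775 and the TSR arrays 1546, 1561 and 1657. Every TSR array lay above every control array, a 1.68-fold difference (log2 0.74 ± 0.12 SE, adjusted p = 0.00210). Slco1b2, the main sodium-independent uptake carrier of mouse hepatocytes, read 2687, 2877 and 2850.2 in control and 3578, 3643 and 3794 in TSR liver at the same hour. These groups did not overlap either, and the rise was 1.31-fold (log2 0.39 ± 0.07 SE, adjusted p = 0.00756). These were the only members of the 8 called higher at ZT1, where 1.72% of all tested probe sets were called higher. None was called lower, also at an unadjusted p under 0.05, beside 1.08%.

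Slco1a1 read 1832, 1857 and 1668 in control and 2241, 2499.9 and 2519 in TSR liver at ZT1, a 1.35-fold difference (log2 0.44 ± 0.12 SE, adjusted p = 0.0486) that lost its call without any 1 of 18 arrays. Slc10a1 read 4712, 4953 and 4811 against 5283, 5082 and 5719.5 at ZT1. Its groups did not overlap, but the difference of 0.15 ± 0.07 SE on the log2 scale had an adjusted p of 0.246. At ZT1 the summed markers of sinusoidal endothelium were also apart between the groups, with 3970 to 4438 in TSR arrays and 4970 to 5464 in control arrays, as were those of Kupffer cells (3401 to 4283 against 4585 to 4734), those of cholangiocytes (2348 to 2493 against 2554 to 2624), mesothelial and adipose markers (617 to 679 against 707 to 759) and, in the other direction, those of erythroid cells (7231 to 9846 against 4391 to 6281). Their part in the result was not tested. The summed hepatocyte markers overlapped at ZT1, with 91173 to 105091 in TSR and 93865 to 94768 in control arrays. Without the 5 arrays set apart, Slco1a4 had a log2 difference of 0.71 at an adjusted p of 0.0450 and Slco1b2 one of 0.36 at 0.085, while Slco1a1 had an adjusted p of 0.170.

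At ZT7 all 8 had a mean below control, from -0.11 (Abcb11) to -0.74 (Abcg8) on the log2 scale, with a median of -0.23, beside a median of 0.01 over all tested probe sets, of which 48.2% lay below 0. Lower by the test were 4 of the 8 (Abcg8, Abcc2, Slc10a1 and Abcg5), where 7.32% of all tested probe sets did. None was higher, also at an unadjusted p under 0.05, beside 7.06%. Slc10a1, the sodium-dependent bile salt importer, read 5715, 5680.2 and 6242 in control and 4885, 4747 and 5149.7 in TSR liver. The groups did not overlap and the level fell by 0.25 ± 0.07 SE on the log2 scale (adjusted p = 0.0228). Without the 5 arrays set apart the call was lost, with a log2 difference of -0.21 (adjusted p = 0.123). For Slco1b2 and Slco1a4 the differences at ZT7 were -0.19 (adjusted p = 0.0873) and -0.14 (adjusted p = 0.457). The hepatocyte markers were higher at ZT7 in TSR, at 102874 to 105840 against 90657 to 93222, while these transporters were lower. Stellate cell markers were also higher (6229 to 6729 against 5493 to 5905), as were those of sinusoidal endothelium (4788 to 5059 against 4053 to 4759) and mesothelial and adipose markers (779 to 963 against 611 to 665), and cholangiocyte markers were lower (2240.0 to 2327 against 2359.7 to 2459.7). Their part was not tested.

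**Figure D3:**
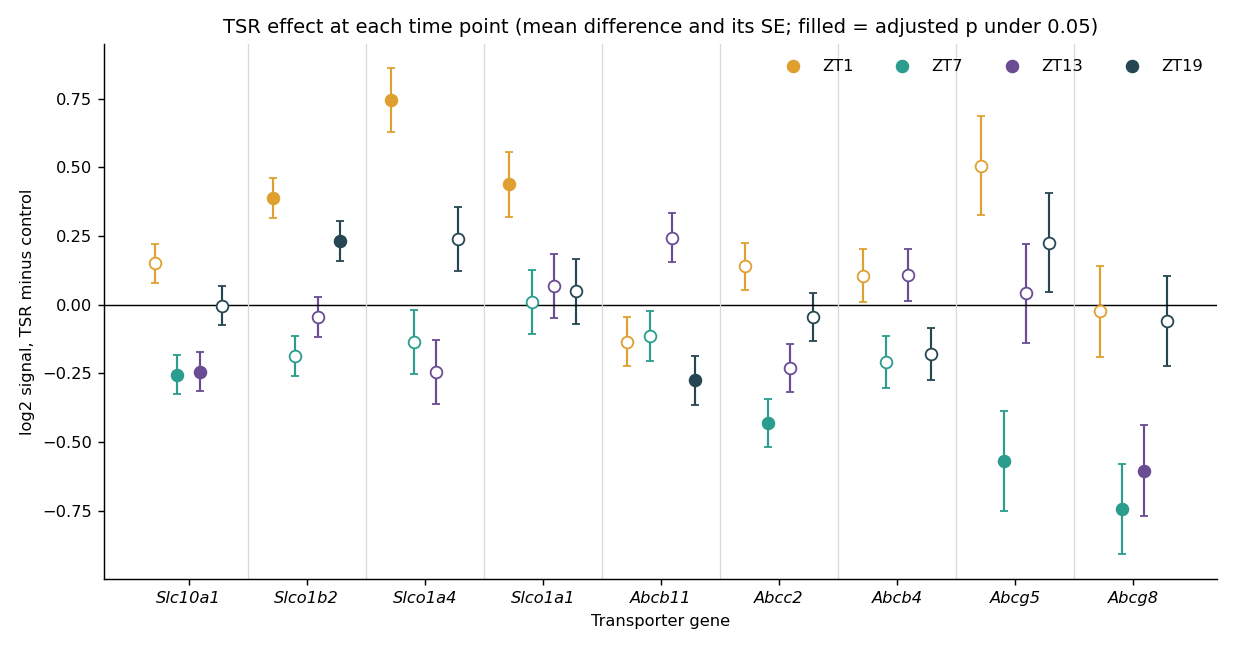
Difference in log2 signal between TSR and control liver for each transporter at ZT1, ZT7, ZT13 and ZT19 (points, with SE from the fit as bars), where filled points passed the test at an adjusted p under 0.05. Slco1a4, Slco1b2 and Slco1a1 are filled above 0 at ZT1, while Abcc2, Abcg5, Abcg8 and Slc10a1 are filled below 0 at ZT7.

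Sterol export genes had the largest differences at ZT7. Abcg8 read 1832, 1911 and 1901 in control and 891, 1352 and 1175 in TSR liver. All TSR arrays lay below all control arrays, a 1.68-fold difference (log2 -0.74 ± 0.16 SE, adjusted p = 0.00891). At ZT13 it read 1797, 1540.2 and 1559.9 in control and 1215, 971 and 1043 in TSR liver, again without overlap and 1.52-fold lower (adjusted p = 0.0195). At ZT1 and ZT19 its differences were -0.02 and -0.06, so the control rise between ZT1 and ZT7 had no counterpart in TSR means, which ran from 1216 ± 125 at ZT1 through 1139 ± 233 at ZT7 and 1076 ± 126 at ZT13 to 905 ± 234 at ZT19. Adjusted p for Abcg8 at ZT7 was 0.0470 without the 5 arrays set apart. The direct test of the difference between its control and TSR curves did not pass (adjusted p = 0.138). Without TSR ZT19 replicate 3, the array with high pancreatic markers, that test had an adjusted p of 0.00916. It then called 450 of all 12551 tested probe sets, beside 46 with all arrays.

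Abcg5, whose protein works only together with Abcg8, read 709.8, 912 and 1094 in control and 505, 652 and 658 in TSR liver at ZT7. The level was 1.48-fold lower (log2 -0.57 ± 0.18 SE, adjusted p = 0.0405), and the call was lost without any 1 of 6 arrays and without the 5 set apart (adjusted p = 0.205). Unlike Abcg8, it read 1044, 813 and 851 in control and 894, 877 and 1005 in TSR liver at ZT13, where the groups overlapped (log2 0.04 ± 0.18 SE, adjusted p = 0.887). Its TSR mean was highest at that hour, at 925 ± 69.1. At ZT1 its difference was 0.51 ± 0.18 SE with overlapping arrays (adjusted p = 0.133). The ratio of the Abcg8 to the Abcg5 probe set ran from 1.72 to 1.89 in the 3 control arrays and from 1.04 to 1.36 in the 3 TSR arrays at ZT13, and the ratios of the groups overlapped at ZT1, ZT7 and ZT19. The ratio of 2 probe sets has no absolute meaning and was compared only between arrays.

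Abcc2, the exporter of conjugated bilirubin and other conjugates, read 3957, 4017 and 4298 in control and 3006, 3024 and 3077 in TSR liver at ZT7. The groups stood apart, with TSR 1.35-fold lower (log2 -0.43 ± 0.09 SE, adjusted p = 0.00603). At ZT13 its control arrays read 4066, 3555 and 3783 and its TSR arrays 3272, 2891 and 3585, which overlapped (log2 -0.23 ± 0.09 SE, adjusted p = 0.0696). Its TSR means stayed within 1.12-fold of each other over the day, beside 1.33-fold in control liver.

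Abcb11, the bile salt export pump, had its differences at other hours. At ZT13, its control low, it read 2203, 2256 and 2223 in control and 2464, 2920.0 and 2549.7 in TSR liver. All TSR arrays were above all control arrays (log2 0.24 ± 0.09 SE, adjusted p = 0.0621). Without the 5 arrays set apart, the adjusted p at ZT13 was 0.0426. At ZT19 it read 3128, 3172 and 3389 in control and 2865, 2547 and 2604 in TSR liver. There all TSR arrays were below all control arrays, and the level fell by 0.27 ± 0.09 SE on the log2 scale (adjusted p = 0.0452). The call at ZT19 was lost without any 1 of 15 arrays, and every control array of that hour is among the 5 set apart.

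Abcb4, the phospholipid floppase, passed no test. At ZT7 it read 1904, 1724 and 1985 in control and 1682, 1507 and 1669.7 in TSR liver (log2 -0.21 ± 0.10 SE, adjusted p = 0.142), and at ZT19 its difference was -0.18 ± 0.10 SE (adjusted p = 0.198). Its fitted curves had amplitudes of 0.11 (control) and 0.10 (TSR) and peaks at ZT6.78 and ZT6.79, and the test of the difference had an adjusted p of 0.994. A missed threshold does not show that the profiles were alike.

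At ZT13, 2 of the 8 were called lower, Abcg8 and Slc10a1, where 9.43% of all tested probe sets were. None was called higher, beside 8.64%, and 1 (Abcb11) was higher at an unadjusted p under 0.05. Slc10a1 read 5443, 5508 and 5654 in control and 4814, 4309.8 and 4923 in TSR liver at ZT13, without overlap (log2 -0.24 ± 0.07 SE, adjusted p = 0.0251), and its calls at ZT7 and ZT13 were each lost without any 1 of 4 arrays. At ZT13 the summed markers of sinusoidal endothelium (4390.1 to 5169.7 in TSR against 4062 to 4215 in control arrays) and of stellate cells (5557 to 6380.1 against 4937 to 5394) stood apart, and their part was not tested. At ZT19, 1 was called higher (Slco1b2, beside 8.57%) and 1 lower (Abcb11, beside 5.86%). Slco1b2 read 2983, 2807 and 2913 in control and 3545, 3474 and 3213 in TSR liver, 1.17-fold higher (log2 0.23 ± 0.07 SE, adjusted p = 0.0384). Slco1a4 was 1.18-fold higher at that hour, with 1344, 1225 and 1205 in control and 1568, 1506 and 1379.6 in TSR liver, and its groups did not overlap, though the adjusted p was 0.163. Slc10a1 differed by 0.00 ± 0.07 SE (adjusted p = 0.975). Without TSR ZT19 replicate 3, the array with high pancreatic markers, Slco1b2 had a log2 difference of 0.28 at an adjusted p of 0.0399 and Abcb11 one of -0.26 at 0.0999. Stellate cell markers stood at 6361 to 7593 in TSR and 4734 to 5627 in control arrays at ZT19. Sums were also higher for hepatocyte markers (100441 to 107643 against 96646 to 98466), sinusoidal endothelium (4588 to 5071 against 3542 to 4533) and mesothelial and adipose markers (723 to 854 against 603 to 652), and their part was not tested.

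Averaged over the 4 time points, Abcg8 was 1.28-fold lower in TSR liver (log2 -0.36 ± 0.08 SE, adjusted p = 0.00423) and Abcc2 1.10-fold lower (log2 -0.14 ± 0.04 SE, adjusted p = 0.0225). They were 2 of the 8, where 13.3% of all tested probe sets were called lower. None was called higher, beside 13.4%, and 2 (Slco1a4 and Slco1b2) were higher at an unadjusted p under 0.05. An exact two-sided permutation test with labels exchanged within time points gave p = 0.00405 for Abcg8 and 0.0291 for Abcc2, without adjustment for the number of genes. The uptake genes had mean differences of 0.15 (Slco1a4, adjusted p = 0.0606), 0.10 (Slco1b2, 0.0510), -0.09 (Slc10a1, 0.0699) and 0.14 (Slco1a1, 0.0794). Those of Abcb11, Abcb4 and Abcg5 were -0.07, -0.04 and 0.05, with adjusted p of 0.255 to 0.701. Without the 5 arrays set apart, the difference of Slco1a1 over the remaining time points was 0.20 (adjusted p = 0.0442). The 8 had a median mean difference of -0.06, beside 0.02 over all tested probe sets.

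How alike the members ran was described by Pearson's r of log2 signal across arrays, which share the groups of the study, so no p is given. Over 28 pairs of the 8, the median r was 0.66 over the 12 control arrays and 0.26 over the 12 TSR arrays, with 17 and 7 pairs above 0.5. Slc10a1 and Slco1b2 stayed alike in both (r = 0.91 in control and 0.89 in TSR arrays) and had the highest r, 0.81, once group means were removed. Slc10a1 and Abcc2 had r of 0.92 and 0.72. For the head-to-head pair Abcg5 and Abcg8, r was 0.75 in control and 0.18 in TSR arrays. Abcg5 and Slco1a4 went from 0.83 to -0.33, and Abcb11 and Slco1a4 from -0.47 to 0.63.

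**Figure D4:**
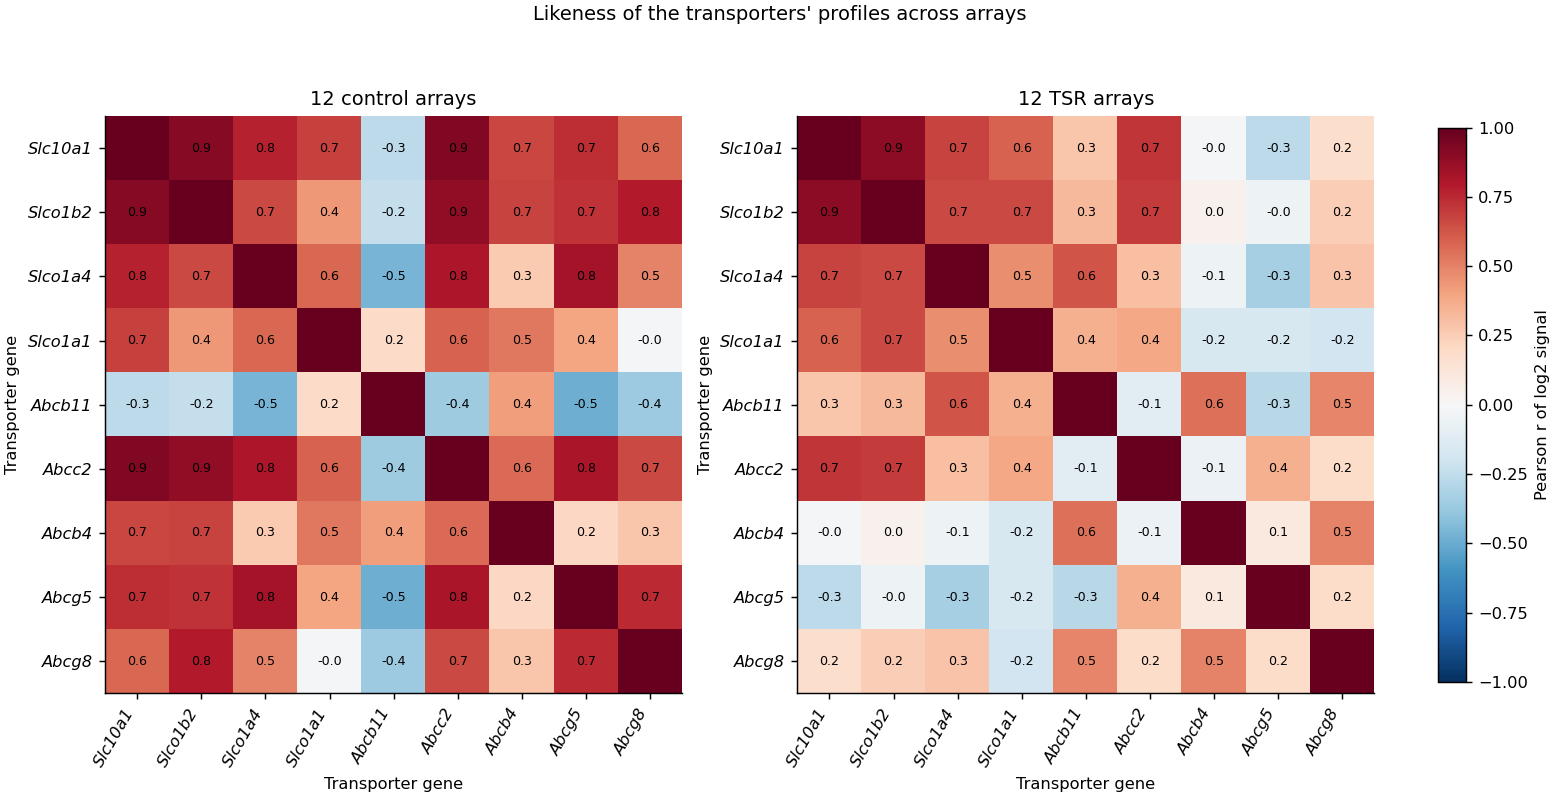
Pearson's r of log2 signal for each pair of transporter genes over the 12 control arrays (left) and the 12 TSR arrays (right), with red for positive and blue for negative values and r printed to 1 decimal. In control arrays all members but Abcb11 form a largely red block, and in TSR arrays the red block covers the 4 uptake genes and part of Abcc2.

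Among all other tested genes, those most like each member over the 24 arrays were taken as the 3 with the highest r. Abcb11 was closest to Insig2 (r = 0.93), a brake on sterol synthesis with a known daily rhythm in liver, followed by Dhrs3 (0.91) and Kynu (0.91). Abcg5 was closest to Rnf145 (0.89), a sterol-responsive ubiquitin ligase, followed by Iffo2 (0.86). Slc10a1 and Abcc2 shared Acsm5, a medium-chain acyl-CoA synthetase, with r of 0.89 and 0.87. Slc10a1 was also close to Tmed5 (0.85) and Vwce (0.83), and Abcc2 to Pitpnc1 (0.87) and Slc2a2 (0.84), the glucose transporter GLUT2. Abcg8 was closest to Dcun1d4 (0.90), Slc39a14 (0.88), a zinc and iron importer, and Arf3 (0.87). Slco1a4 was closest to Rbm3 (0.82), a cold-inducible RNA-binding protein, Coa8 (0.74) and Adk (0.71), and Slco1b2 was close to 9630013D21Rik (0.80) and Aopep (0.76). Abcb4 was closest to Aqp9 (0.80), the glycerol channel, Arel1 (0.77) and 1600014C10Rik (0.76), and Slco1a1 to Kansl1 (0.86), Nsa2 (0.85) and Arglu1 (0.85).

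Other genes of the pathway were taken from 6 lists of 73 genes, of which 67 were tested. Of these 67, 3 were called higher and 0 lower at ZT1 in the same fit (beside 1.72% and 1.08% of all tested probe sets), and 7 higher and 4 lower at ZT7 (beside 7.06% and 7.32%). The counts were 6 and 5 at ZT13 (beside 8.64% and 9.43%) and 3 and 2 at ZT19 (beside 8.57% and 5.86%). The curve passed the test in 18 in control liver (beside 12.9%) and in 2 in TSR liver (beside 2.69%). The median log2 difference over the 67 lay between -0.02 and 0.01 at single time points, and the medians of the 6 lists between -0.16 (membrane anchoring and canaliculus, ZT1) and 0.15 (regulators, ZT19). The 3 called at ZT1 were Nr1h4 (FXR), the bile acid receptor, Nr1i3 (CAR), a xenobiotic receptor that drives many transporters, and Cyp7a1, the rate-limiting enzyme of bile acid synthesis. Nr1i3 was 2.16-fold higher at ZT1, at 2249.5 ± 219 in TSR and 1056 ± 232 in control liver (adjusted p = 0.0124), and was the only listed gene called at over 2-fold. Nr1h4 was 1.52-fold higher at ZT1 (adjusted p = 0.00190) and lower by 0.45 on the log2 scale at ZT7 (adjusted p = 0.00627). Cyp7a1 was 1.92-fold higher at ZT1 (adjusted p = 0.00760) and 1.71-fold lower at ZT7 (adjusted p = 0.0101).

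Of 16 regulators, 6 had a TSR effect that differed between time points, beside 20.1% of all tested probe sets. Nr1i2 (PXR), a xenobiotic and bile acid sensor, was 1.41-fold higher at ZT7 (adjusted p = 0.00365) and 1.16-fold higher on average (adjusted p = 0.00170). Klb, a coreceptor for FGF15 and FGF21, was rhythmic in control liver (adjusted p = 0.00864). Of 10 genes of bile acid synthesis and conjugation, 4 were higher on average and none lower, beside 13.4% and 13.3% of all tested probe sets. Cyp27a1, the first enzyme of the acidic pathway, was 1.22-fold higher (adjusted p = 0.000442), Hsd3b7 1.24-fold higher (adjusted p = 0.00563), and Hsd3b7 and Amacr were rhythmic in control liver (adjusted p = 0.00221 and 0.00271).

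Of 9 tested further uptake genes, 1 was higher and 3 were lower on average (beside 13.4% and 13.3%). Slc27a5, which activates bile acids for conjugation, was 1.09-fold higher (adjusted p = 0.0143), while Slc10a5 (adjusted p = 0.0107), Slc10a2 (adjusted p = 0.0275) and the prostaglandin carrier Slco2a1 (adjusted p = 0.00721) were lower. Of 10 other efflux genes, 2 were lower on average and none higher (beside 13.3% and 13.4%). They were Atp8b1, the canalicular phosphatidylserine flippase, at 1.23-fold lower (adjusted p = 0.00104), and Abcc4, a basolateral bile acid exporter, at 1.28-fold lower (adjusted p = 0.00182). The copper pump Atp7b was 1.28-fold lower at ZT7 (adjusted p = 0.0195), and Abcb1a was rhythmic in control liver (adjusted p = 0.00539). Abcb1a and Abcc4 were near the filter level, with group means of 80.3 to 134.5 for Abcb1a and 96.5 to 152.6 for Abcc4.

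Of 12 genes of cholesterol uptake and efflux, 2 were higher and 3 lower on average (beside 13.4% and 13.3%). Npc2, a lysosomal cholesterol carrier, was 1.25-fold higher (adjusted p = 0.00148), and Npc1, its partner in the lysosomal membrane, was rhythmic in control liver (adjusted p = 0.0176). Of 10 genes of membrane anchoring and the canaliculus, the tight junction gene Cldn1 was rhythmic in control liver (adjusted p = 0.00253) and in TSR liver (adjusted p = 0.0429). Ceacam1, a canalicular adhesion protein, was 1.27-fold lower on average (adjusted p = 0.00509), and Ezr, which tethers membrane proteins to actin, was 1.42-fold higher at ZT7 (adjusted p = 0.0109).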

How the data were processed

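Liver RNA was hybridized to Affymetrix MoGene 1.0 ST arrays. The authors normalized the signals with d-Chip and deposited them as linear intensity values per probe set. Its version, and how background and summary were handled, the sources used here do not give. The liver columns of the deposited series table were equal to those of the liver table (largest difference 0).

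Of 28815 probe sets, 24261 carried a symbol, 535 of them several. Probe sets with 1 symbol (plus that named Slco1a1) and a geometric mean signal above 95.1 were kept (12551, 11225 genes). Symbols were updated through RefSeq names (GRCm38.p6). Log2 signals, floored at 1, were tested with limma 3.58.1 (R 4.3.3): a cosine and sine of 24 h per treatment, their difference, and a model of 8 group means, with Benjamini-Hochberg adjustment over all tested probe sets and a threshold of 0.05. The curve test stands for CircWave, the tool of the study's methods, and calls differ between them. The study's gene list has Abcb11, Slc10a1, Slco1a4 and Slco1b2 as rhythmic in both treatments, and Abcg5 and Abcg8 in control only. The curve test called none of these in TSR liver. Scripts were tested on simulated data. Per array, median signals were 84.5 to 108.8, and the number of arrays limits precision. Named are the members, for each the 3 genes with the highest r, up to 4 genes a list with the smallest adjusted p, and listed genes called at over 2-fold. Some genes that this rule picks are not reported here. The members, lists and tests were chosen with earlier results of these data known. Alternatives are given in the closing section. Arrays labelled WAT entered no test.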

Additional observations from a re-analysis of the deposited data

Results flagged for a closer look

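For 7 transporters the test of the difference between time points passed, which is why they are listed here. The adjusted p of that test was 0.00493 for Slco1a4, 0.00734 for Slco1b2, 0.0195 for Abcc2, 0.0201 for Slc10a1, 0.0302 for Abcg5, 0.0327 for Abcb11 and 0.0482 for Abcg8. The call was lost without any 1 of 20 arrays for Abcg8, 8 for Abcb11 and 4 for Abcg5, and without the 5 arrays set apart Slco1a4 alone passed. Over all 12551 tested probe sets, 93 passed without those 5 arrays, beside 2527 with all arrays. In Slco1a4, for example, the log2 difference between TSR and control was 0.74 at ZT1 (adjusted p = 0.00210) and -0.24 at ZT13 (adjusted p = 0.139). The daily curve itself differed between TSR and control liver in Slco1a4 (adjusted p = 0.0342) and Slco1b2 (adjusted p = 0.0377).

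The arrays labelled WAT, which entered no comparison, carried a strong signal of liver transporters. The median signal of Slc10a1 over these 24 arrays was 3565, with 17 arrays between 3229.6 and 4295 and 7 between 22.7 and 118, beside 4309.8 to 6242 in the arrays labelled liver.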

How the results depend on the processing

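Counts are of the 8 members called, and each count in parentheses is that reported. Without a filter on signal, 3 had a control rhythm (5), 0 a difference in rhythm (2), 3 a TSR effect that differed between time points (7), 1 a difference in the mean (2), 2 at ZT7 (4), 1 at ZT13 (2) and 0 at ZT19 (2), with 2 to 7 of them at an unadjusted p under 0.05. Of the 23727 probe sets tested then, 872 had a control rhythm, 13 a difference in rhythm and 1372 differed between time points. In the mean 2529 of them were called, with 1029 at ZT7, 1351 at ZT13 and 1242 at ZT19. With a mean signal above 200, 4 differed in the mean, beside 2942 of 8004 probe sets. Quantile normalization gave 3 for control rhythm, 1 for the difference in rhythm and 1 at ZT19. Over all 12551 tested probe sets it called 1562, 69 and 2045. Array quality weights gave 1 for TSR rhythm (0), 7 for the difference in rhythm and 5 for the mean. Over all tested probe sets these weights called 1584, 2459 and 4702, beside 337, 46 and 3350 in the reported fit. A test of 4 time points without a curve called 8 in control and 1 in TSR liver, beside 5446 and 874 of all tested probe sets. The methods' t-test called 0 in the mean and 0 at each time point after Benjamini-Hochberg adjustment. Of all 12551 tested probe sets, this t-test then called 1478 in the mean and 702 at ZT19. It called only 8 of them at ZT13, 6 at ZT7 and 0 at ZT1. Before adjustment, at a p under 0.05, it called 2 members in the mean, 2 at ZT1 and 4 at each other time point. Over all tested probe sets, between 2192 (ZT1) and 3570 (mean) had such a p. Without the 5 arrays set apart, 1 differed in rhythm, 1 between time points, 1 at ZT1 (2) and 2 at ZT7, and no ZT19 comparison could be made. Over all tested probe sets, 36, 93, 37 and 545 were called in that setting. The log2 of signal plus 16 kept every count within 1.5 times.

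The deviations of same-numbered arrays had a median r of 0.03 over 84 pairs (-0.38 to 0.74). Those of arrays with different numbers had a median r of -0.03 over 168 pairs (-0.70 to 0.69). These wide ranges overlap, so the values cannot decide whether numbers pair samples, and the reported tests used no pairing. With the replicate block, 3 members had a control rhythm and 0 a difference in rhythm, and the other counts were the same.

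With each array left out in turn, members called ranged from 3 to 6 for control rhythm, 0 to 4 for the difference in rhythm, 4 to 7 between time points, 2 to 3 for the mean and at ZT1, 2 to 4 at ZT7, 0 to 3 at ZT13, 0 to 2 at ZT19, and were 0 for TSR rhythm. Control rhythm was 3 without control ZT7 replicates 1 or 2 or ZT19 replicate 2, ZT7 was 2 without control ZT7 replicate 3 or TSR ZT7 replicates 1 or 2, and ZT13 was 0 without control ZT13 replicate 1 or TSR ZT13 replicate 2 and 1 without control ZT13 replicates 2 or 3. The difference in rhythm was below 2 without any of 17 arrays, that is all but control ZT7 replicate 3, ZT13 replicate 3 and ZT19 replicate 1 and TSR ZT7 replicate 3, ZT13 replicates 1 and 3 and ZT19 replicate 3, without which it was 4. The ZT19 count was below 2 without any of 16 arrays, that is all but control ZT7 replicates 2 and 3 and TSR ZT1 replicates 2 and 3, ZT7 replicate 1 and ZT13 replicates 1 to 3, and 0 without any control ZT19 replicate or TSR ZT19 replicate 2. Other genes of the pathway called in any comparison were 32 to 39 (40).

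Small uncalled differences changed sign. They were the mean of Abcb11 without the 5 arrays (0.0146), Slco1a1 at ZT7 with quantile normalization (-0.08145), and, with quality weights, Abcg5 (-0.01615) and Slco1a1 (-0.00672) at ZT13 and Abcg8 (0.108) and Slc10a1 (0.03075) at ZT19. With single arrays left out, ranges that crossed 0 were -0.0967 to 0.0575 (Abcg8, ZT1), -0.0745 to 0.136 (Slco1a1, ZT7), -0.029 to 0.151 (Abcg5, ZT13), -0.0603 to 0.173 (Slco1a1, ZT13), -0.10 to 0.0073 (Slco1b2, ZT13), -0.199 to 0.176 (Abcg8, ZT19), -0.0284 to 0.0241 (Slc10a1, ZT19) and -0.0014 to 0.0949 (Slco1a1, ZT19). Of the 27 genes named for likeness, 16 were named with quantile normalization, and the cause was not tested. These alternatives for likeness and pathway genes were chosen after seeing the data.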

Other observations

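In the same 7 arrays labelled WAT the other transporters were low as well, but Slco1a4 read 171 to 371 there and 741 to 1281 in the other 17. Abcb11 read at least 1599 in 17 of 24 arrays and at most 30.8 in the other 7. In control arrays of that label it read 2278, 2688 and 2885 at ZT1 and 1774, 1779 and 1599 at ZT13, the same order of these 2 time points as in the arrays labelled liver. Median signals of Slco1b2, Abcc2 and Abcg8 were 2307, 2723 and 898. The hepatocyte gene Alb had a median of 8091, beside 9898 to 15570.0 in the arrays labelled liver. The adipocyte genes Adipoq and Plin1 lay between 12.6 and 33.1 and between 29.2 and 81.97 in all 24, below or near their level in the arrays labelled liver (47.96 to 88.3 and 66.6 to 125). These values go against the label of the arrays, and whether both sets were normalized together is not stated. The 7 arrays with low Slc10a1 were control ZT7 replicate 3, control ZT19 replicates 1 to 3, TSR ZT1 replicate 1, TSR ZT13 replicate 2 and TSR ZT19 replicate 3.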
